A study of Mus musculus with 42 samples.

Results

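The Kcnab1 locus in mouse bone marrow-derived macrophages (BMDMs) was examined by ChIP-seq for RNA polymerase II (Pol II) and for acetylated lysine 27 of histone H3 (H3K27ac), a histone modification found at promoters and enhancers in use. The locus was selected on its Pol II tags over the gene body and the intronic interval, which differed between the genotypes after lipopolysaccharide (LPS), so the Pol II values at Kcnab1 are given as a description, without a test, while H3K27ac and the neighbouring genes were tested. Kcnab1 (ENSMUSG00000027827) is 1 of 21897 protein-coding genes compared and lies on the plus strand at chr3:65109384-65378223 of the mm10 build. Its members were 1 intronic interval, chr3:65197521-65230651, over which Pol II was summed, the 21 H3K27ac regions (of 65218 in the series) within 200 kb of that interval, 16 of them overlapping the gene, and the 13 other protein-coding genes within 1 Mb.

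The macrophages were differentiated for 7 days in conditioned medium from the bone marrow of male C57Bl6/J mice 6 to 12 weeks old. One genotype was wild type (WT) and the other was deficient in the nuclear receptor Nur77 (gene Nr4a1), here called KO. The labels give the KO genotype only as cre, while the study's methods describe animals bred on to lose the Cre transgene (driven by the CMV promoter) after it had deleted a floxed Nr4a1 throughout the body, and this difference was not resolved. By those methods the deletion was whole-body, so it was present in every cell type before differentiation and not induced in the macrophages. Cells of both genotypes were left untreated (0 h) or given LPS, a component of the bacterial outer membrane that macrophages sense through Toll-like receptor signalling, at 100 ng/ml for 1 h or 18 h, with 3 libraries per antibody, genotype and time (36 ChIP libraries) and 1 input library per genotype and time (6). The sources used here do not say which animal or culture each replicate came from, so the p-values measure only the spread between these libraries.

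Kcnab1 encodes a beta subunit of voltage-gated potassium channels of the Kv1 (shaker) family. Beta subunits are cytoplasmic proteins that bind the pore-forming alpha subunits and alter their gating and their delivery to the membrane, and those of the Kcnab family are best known from neurons and heart muscle. Alternative first exons give Kcnab1 transcripts with different N-terminal parts. Potassium channels of several families set the membrane potential of macrophages and are known to take part in inflammasome activation.

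RefSeq (GRCm38.p6) places the start of variant 3 at 64949212, that of variant 1 at 65109014 and that of variant 2 at 65188103 on chromosome 3. The interval begins 9418 bp past the start of variant 2 and lies wholly in the long intron between the exon at chr3:65188967-65189042 and the exon at chr3:65266491-65266534. The antisense gene A330015K06Rik also spans the interval. The sense-overlapping gene AC113458.1 covers part of it, and its exon at chr3:65221839-65223701 lies inside the interval. ChIP does not report the strand that Pol II reads, so tags of Kcnab1 and of these genes cannot be told apart.

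The 3 promoters are shown because Pol II and H3K27ac were found at only one of them, that of variant 2. Each runs from 250 bases before to 50 bases after the RefSeq start, and capitals mark matches to the interferon-stimulated response element (ISRE, GAAANNGAA, on either strand).
Promoter of variant 3, chr3:64948962-64949261, plus strand: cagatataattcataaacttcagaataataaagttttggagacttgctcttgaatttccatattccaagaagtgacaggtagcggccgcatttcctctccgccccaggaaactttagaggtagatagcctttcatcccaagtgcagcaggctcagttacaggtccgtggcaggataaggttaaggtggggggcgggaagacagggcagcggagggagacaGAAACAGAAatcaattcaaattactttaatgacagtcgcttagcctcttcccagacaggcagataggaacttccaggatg
Promoter of variant 1, chr3:65108764-65109063, plus strand: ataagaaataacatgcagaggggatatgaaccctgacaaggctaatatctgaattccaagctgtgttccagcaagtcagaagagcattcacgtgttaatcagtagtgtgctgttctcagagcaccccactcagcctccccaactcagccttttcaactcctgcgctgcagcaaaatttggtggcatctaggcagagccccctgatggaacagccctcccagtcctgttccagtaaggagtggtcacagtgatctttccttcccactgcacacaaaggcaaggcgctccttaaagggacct
Promoter of variant 2, chr3:65187853-65188152, plus strand: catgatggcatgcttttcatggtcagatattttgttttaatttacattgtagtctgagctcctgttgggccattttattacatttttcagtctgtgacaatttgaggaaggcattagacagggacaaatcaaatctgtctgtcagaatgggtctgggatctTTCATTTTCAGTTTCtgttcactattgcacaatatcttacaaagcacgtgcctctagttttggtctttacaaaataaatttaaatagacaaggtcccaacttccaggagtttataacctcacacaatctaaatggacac
The variant 2 promoter held a pair of overlapping ISRE matches on the minus strand, whose left ends lie at -89 and -83 from the start. The variant 3 promoter held 1 match at -30 and the variant 1 promoter held none of the motifs searched. Of all 32851 RefSeq promoters of this length, 8.56% held an ISRE match. The AP-1 motif (TGANTCA, 7.81% of promoters), the Nur77 monomer motif NBRE (AAAGGTCA, 1.51%), the PU.1 motif (GAGGAAGT, 3.20%) and the NF-kB motif (8.46%), all searched on both strands, were in none of the 3. A match is a description of the letters and not a site.

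Further sequences (plus strand, mm10) come from the H3K27ac regions on which the results turn, with the matched motif in capitals. The 2 NBRE windows are shown because one lies in a region where KO was higher and the other in a region where KO was lower. The last is the middle of chr3:65197482-65201455, the longest of the H3K27ac regions at the interval, none of which had WT signal.
AP-1 match in the H3K27ac region at the variant 2 start, chr3:65187342-65187372: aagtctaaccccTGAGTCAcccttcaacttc
AP-1 match in the intronic region at chr3:65282421-65285716, chr3:65284133-65284163: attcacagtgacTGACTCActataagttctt
NBRE match in the region at chr3:65294265-65302445, chr3:65299834-65299865: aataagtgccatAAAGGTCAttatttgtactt
NBRE match in the region at chr3:65371708-65373879, chr3:65371883-65371914: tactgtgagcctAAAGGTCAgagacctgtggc
Centre of the H3K27ac region inside the interval, chr3:65199319-65199618: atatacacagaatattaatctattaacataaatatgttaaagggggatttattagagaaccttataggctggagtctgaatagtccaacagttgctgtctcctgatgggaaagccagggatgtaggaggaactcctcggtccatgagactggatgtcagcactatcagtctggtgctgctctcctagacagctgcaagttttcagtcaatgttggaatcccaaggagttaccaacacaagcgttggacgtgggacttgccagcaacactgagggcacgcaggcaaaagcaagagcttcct
Long windows hold such motifs often. Of 65180 windows of the same length centred on the H3K27ac regions of the series, 77.6% held an AP-1 match at the length of the start region, 68.1% at that of chr3:65282421-65285716, and an NBRE match was in 35.6% at the length of chr3:65294265-65302445 and in 11% at that of chr3:65371708-65373879. The region chr3:65197482-65201455 held 6 ISRE matches and 1 PU.1 match, with no AP-1, NBRE or NF-kB match. Of windows of its length, 76.6% held an ISRE match.

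Depth was 21.7 to 36.1 M tags (M for mega) for Pol II, 23.6 to 55.4 M for H3K27ac in KO and 13.5 to 31.1 M in WT, and 25.6 to 45.3 M for the inputs. All values are tags in regions found per library, scaled to a library of 10 M tags, and a place with no region found is listed at 0, which is not a count of 0 tags. The H3K27ac libraries of KO 1 h replicate 1 and KO 18 h replicate 1 stood apart from the other replicates of their groups (Pearson r across regions 0.906 to 0.912, against 0.989 to 0.997 for every other replicate pair), so H3K27ac differences that turn on these libraries are also given without them. Pol II at Nr4a1 in WT was 189, 188 and 208 tags at 0 h against 87.8, 76.1 and 70.2 in KO (log2 difference -1.23, adjusted p = 1.2e-04). At 1 h the WT libraries held 25.5, 23.0 and 30.4 and the KO libraries 33.5, 39.0 and 36.6 (0.36, adjusted p = 0.089). At 18 h WT held 7.46, 5.98 and 0 and KO was listed at 0 (adjusted p = 0.044). The 18 h test was entered through WT alone, on values of at most 7.46 tags, so nothing is read from it. The Nr4a1 value spans the whole gene, so at 1 h, with WT and KO not apart by the test, it does not check the labels. All 7 macrophage markers had Pol II signal, with summed levels of 21208 to 45142 tags per library. At 1 h the sum was 24723 to 25420 in KO and 33425 to 35427 in WT, and the markers moved both ways: Adgre1 (-0.77), Mertk (-0.68) and Itgam (-0.52) were lower in KO and Csf1r higher (0.42), while Cd68, Spi1 and Lyz2 were not called. At 0 h Mertk alone was called, higher in KO (0.47). At 18 h it was 36344 to 39374 against 42587 to 45142, with Itgam (-1.16), Lyz2 (-0.74), Csf1r (-0.53) and Adgre1 (-0.25) lower and Mertk higher (0.26). Of the markers of other cells, Cd3e, Cd3g, Pax5, Ly6g, Elane, Siglech, Col1a1 and Col1a2 were listed at 0 in every library. The T cell gene Lck held 56.9 to 146 tags (higher in KO at 1 h, 0.30, adjusted p = 0.023), the B cell gene Cd79a 33.8 to 116, the dendritic cell genes Flt3 and Zbtb46 together 25.4 to 73.2 (at 1 h Flt3 was found in 2 KO libraries and no WT library), and the fibroblast gene Pdgfra at most 6.21. The neutrophil gene S100a8 held 39.3 to 45.3 tags in KO and 15.4 to 16.6 in WT at 0 h, and 8.62 to 17 in KO at 1 h, when WT was listed at 0. The part of these shifts in the results below was not tested. The median log2 difference between KO and WT over all genes tested for Pol II was 0.04 at 0 h, 0.24 at 1 h and -0.10 at 18 h.

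Pol II at the start of Kcnab1 variant 2 was alike in the genotypes before LPS and higher in KO after it. Within 2500 bp of the variant 2 start, KO held 30.3, 28.8 and 22.3 tags at 0 h and WT 22.1, 27.6 and 30.3. At 1 h the KO libraries held 181, 175 and 163 tags and the WT libraries 57.2, 50.6 and 51.1. At 18 h KO held 269, 253 and 250 tags and WT 117, 133 and 116. The groups overlapped only at 0 h. The mean was higher at each later time in both genotypes, and it was 3.27 times as high in KO as in WT at 1 h (173 ± 9.27 against 53.0 ± 3.67, SD, n = 3) and 2.11 times at 18 h (257 ± 10.2 against 122 ± 9.85). The inputs at this place held 12.2 to 59.8 tags, the highest of them in the WT 18 h input. The 0 h values of both genotypes and the WT 1 h values did not stand above the highest input. The other inputs held 12.2 to 25.5 tags, with 18.0 in the WT 1 h input. The ratio at 1 h thus rests on a WT level above every input but that of WT 18 h. No Pol II region was found within 2500 bp of the starts of variants 1 and 3 in any of the 18 libraries.

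**Figure D1:**
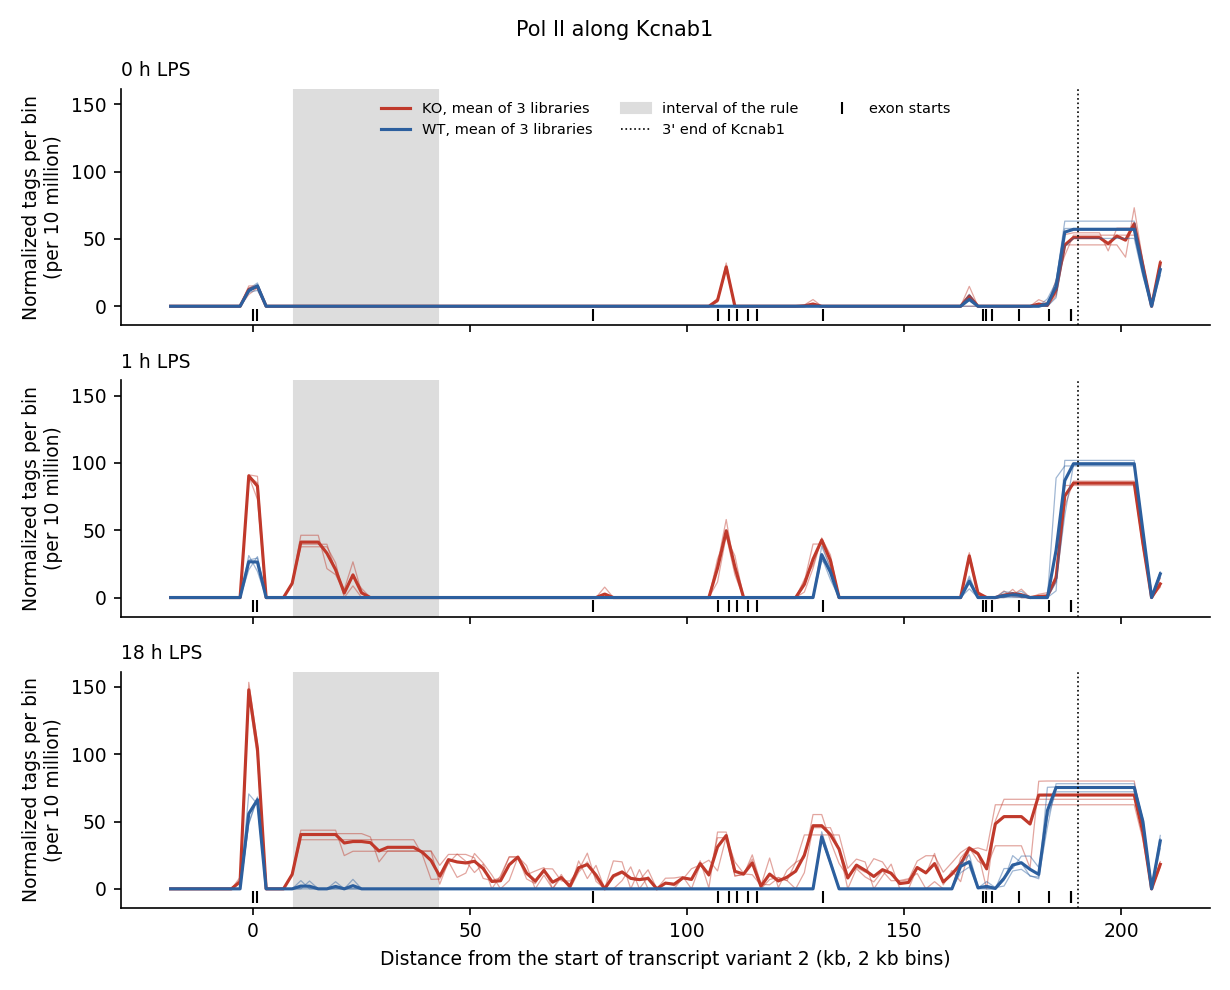
Pol II tags along Kcnab1 in bins of 2 kb, as the mean of 3 libraries per genotype and time, plotted against the distance in kb from the variant 2 start. After 18 h of LPS the KO line stays above the WT line from the variant 2 start through the interval to near the 3' end, where both genotypes carry signal at all times.

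Inside the interval the genotypes differed most in what was found at all. At 0 h the interval was listed at 0 in all 6 libraries. After 1 h of LPS the KO libraries held 215, 196 and 224 tags (212 ± 14.1, SD, n = 3), over 31.9% to 37.4% of its length, and the WT libraries were listed at 0. After 18 h KO held 561, 572 and 537 tags (556 ± 17.9), over 93.7% to 97.2% of the length. WT held 11.1, 6.12 and 7.06 tags (8.09 ± 2.65), over 1.51% to 3.02%. Every KO library was thus above every WT library at both times after LPS, with KO replicates that lay close together. The inputs over the interval held 4.75 tags (KO 0 h), 7.00 tags (KO 1 h) and none in the other 4, so the WT 18 h values lay near those of an input.

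Downstream of the interval, up to 5 kb before the 3' end of the gene, Pol II was present in both genotypes after LPS and higher in KO. The KO libraries held 250, 254 and 259 tags at 1 h against 127, 64.9 and 69.6 in WT, and 1175, 1471 and 1420 tags at 18 h against 266, 272 and 267. At 0 h KO held 42.6, 45.2 and 71.0 tags and WT 15.2, 11.8 and 0. The inputs over the same stretch held 143, 189 and 34.7 tags in KO and 47.2, 80.9 and 153 in WT (0, 1 and 18 h), so the KO 0 h and WT 1 h levels lay within the range of the inputs and the WT 0 h level below it, whereas all 18 h values lay above it. In the last 5 kb the order was not the same. KO held 106, 96.4 and 111 tags before LPS, then 163, 189 and 170 and then 200, 156 and 166 (1 h and 18 h), and WT 97.7, 148 and 138, then 244, 215 and 166, then 189, 180 and 195, so the groups overlapped at every time. The Ssr3 gene, on the minus strand, has its own 3' end 1.432 kb beyond the 3' end of Kcnab1, and its Pol II region runs into this stretch.

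**Figure D2:**
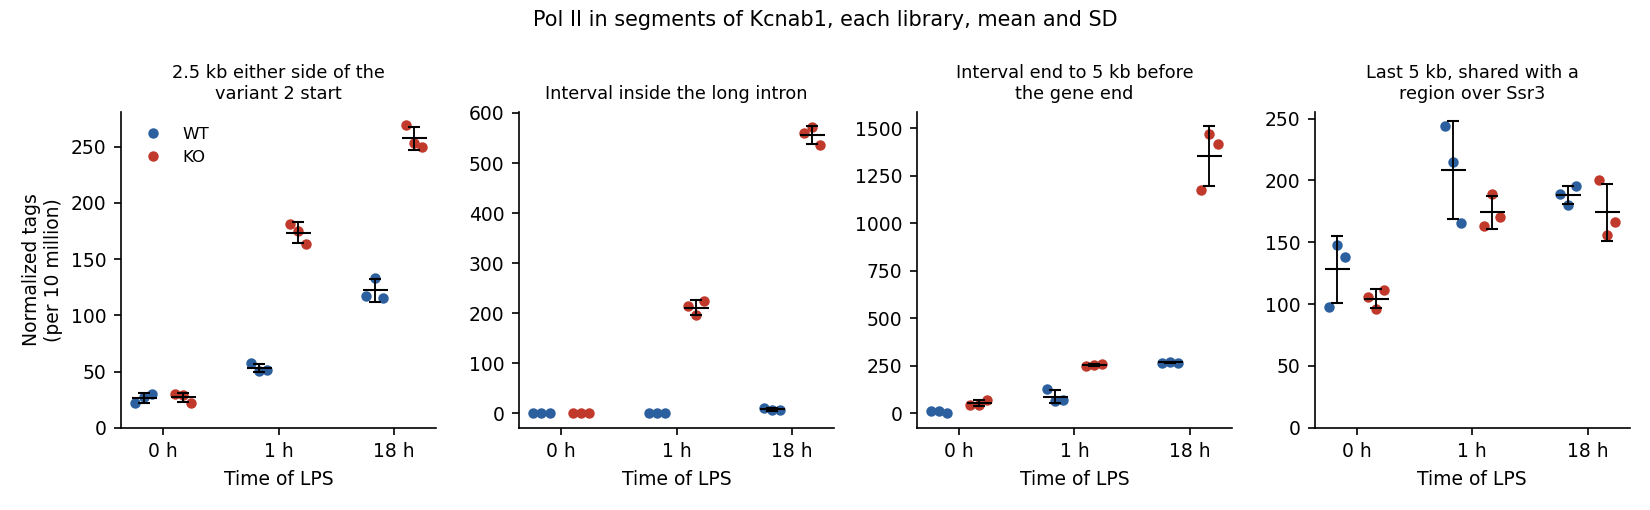
Pol II tags per library in successive segments of the Kcnab1 gene, by genotype and hours of LPS, with points for single libraries and bars for the mean and SD of 3 libraries where all 3 were above 0. KO and WT libraries separate after LPS at the variant 2 start, in the interval and downstream of it, but not in the last 5 kb.

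Over the whole gene with 500 bp on each side, Pol II in KO was 192, 182 and 218 tags at 0 h, 831, 835 and 837 after 1 h of LPS, and 2225, 2467 and 2390 after 18 h. In WT it was 148, 203 and 183 tags at 0 h, 453, 356 and 311 after 1 h, and 603, 610 and 605 after 18 h. The order of the means was WT 0 h (178 ± 28.2), KO 0 h (197 ± 18.7), WT 1 h (373 ± 72.4), WT 18 h (606 ± 3.65), KO 1 h (835 ± 3.15) and KO 18 h (2360 ± 124), and only the 0 h groups overlapped. The difference between KO and WT on the log2(tags + 10) scale was 0.15 at 0 h, 1.16 at 1 h and 1.94 at 18 h. At 18 h the regions covered 40.5% to 47.2% of the gene in KO, as 35 to 41 separate regions, and 8.19% to 8.90% in WT, as 7 to 12. Without the last 5 kb, which the Pol II region of Ssr3 reaches, KO held 72.9, 74.0 and 93.3 tags, then 646, 625 and 646, then 2004, 2295 and 2207. WT held 37.3, 39.4 and 30.3, then 184, 116 and 121, then 394, 411 and 390. The log2 differences were 0.98, 2.14 and 2.41. The inputs over this stretch held 54.6 to 217 tags. That range covers the KO 0 h and WT 1 h values, and the WT 0 h values lie below it. The difference at 0 h thus rests on levels within or below the input range in both genotypes, and the difference at 1 h on a WT level within that range.

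Across the 18 Pol II libraries, the values of Kcnab1 were most like those of Hspa1a, an inducible heat shock protein gene (Pearson r 0.96), Gm20481, which overlaps Hspa1a (0.96), Atp11b, a phospholipid flippase gene (0.96), Gbe1, the glycogen branching enzyme gene (0.95), and Ly75, the DEC-205 endocytic receptor gene (0.95), among 13612 genes compared. These r describe 18 libraries in 6 groups that share genotype and time, and have no p. At 0, 1 and 18 h Atp11b had means of 112, 506 and 1602 tags in KO, beside 130, 303 and 782 for WT, and Ly75 was listed at 0 at 0 h in both genotypes, with means of 103 and 361 tags in KO and 46.2 and 136 in WT after LPS.

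H3K27ac at the variant 2 start rose with LPS in both genotypes, and the difference between the genotypes was not called there. The region chr3:65185201-65189677, centred 0.66 kb before the start, held 240, 238 and 217 tags in KO and 227, 250 and 209 in WT at 0 h. At 1 h it held 866, 659 and 607 tags in KO and 474, 514 and 508 in WT. At 18 h it held 776, 1149 and 1050 in KO and 822, 755 and 812 in WT. All KO libraries were above all WT libraries at 1 h, while the groups overlapped at 0 h and 18 h. The log2 difference at 0 h was 0.02 (adjusted p = 0.98). It reached 0.49 at 1 h (adjusted p = 0.017, below the 1 unit also asked of a call) and 0.30 at 18 h (adjusted p = 0.18). The rise over 0 h was 1.09 at 1 h (adjusted p = 5.3e-06) and 1.76 at 18 h (adjusted p = 2.8e-08) in WT, and 1.56 (adjusted p = 2.2e-07) and 2.03 (adjusted p = 4.9e-09) in KO. Without KO 1 h replicate 1 the 1 h difference was 0.34, and without KO 18 h replicate 1 the 18 h difference was 0.46.

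A region was called where limma gave a Benjamini-Hochberg adjusted p under 0.05 over all regions tested and a log2 change over 1. Inside the interval, H3K27ac regions were found in KO after LPS and in no WT library. The region chr3:65197482-65201455, centred 11.4 kb past the variant 2 start, held 82.3, 76.2 and 83.6 tags in KO at 1 h and 62.6, 135 and 85.0 at 18 h. At 0 h KO held 0, 0 and 6.18, and all 9 WT libraries were listed at 0. It entered the test through the KO libraries alone. The adjusted p was 4.6e-07 at 1 h and 1.8e-07 at 18 h (8.0e-07 and 3.5e-07 with no filter on which regions were tested). For the difference in the change with LPS it was 1.3e-04 at 1 h and 5.6e-05 at 18 h (2.2e-04 and 9.9e-05 with no filter). Without KO 1 h replicate 1 the 1 h adjusted p was 2.0e-07, and without KO 18 h replicate 1 the 18 h value was 7.0e-08. KO libraries were deeper than WT libraries on the whole, and the part of depth in what was found was not tested. The KO inputs held 4.75 tags at 0 h and 7.00 at 1 h. A smaller region, chr3:65203308-65204579, held 28.8, 8.91 and 9.15 tags in KO at 1 h and 17.8, 10.5 and 11.8 at 18 h and was listed at 0 in all others and entered the tests through KO alone. These values lie near 10 tags and their calls did not last. The 1 h call was lost without KO 1 h replicate 1 (0.93), and the 18 h call without replicate 2 of every group (adjusted p = 0.052) or replicate 3 (adjusted p = 0.053). The interaction at 18 h was lost with no filter (adjusted p = 0.061), so nothing is read from the tests of this region.

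**Figure D3:**
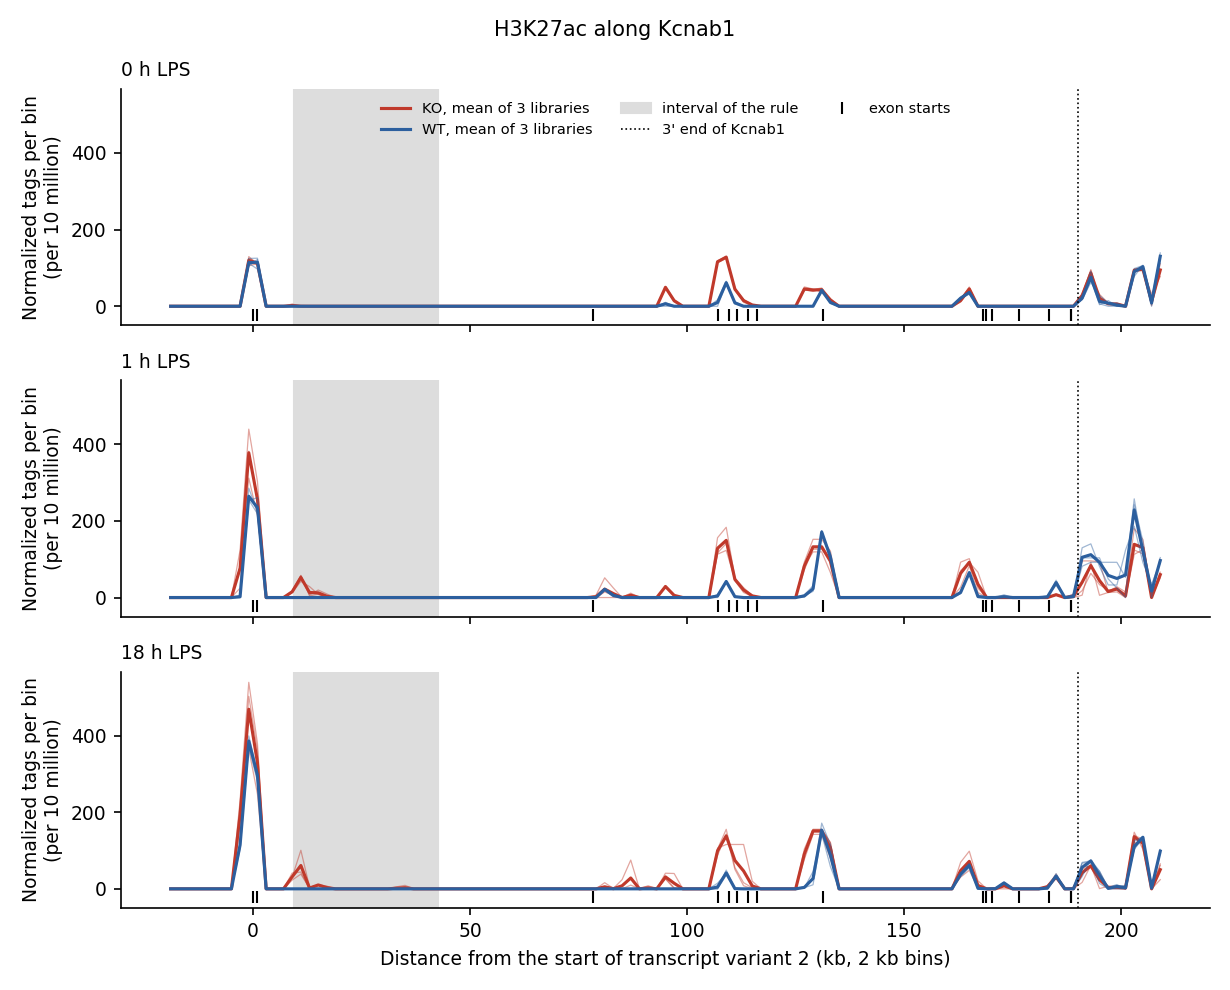
H3K27ac tags along Kcnab1 in bins of 2 kb, as the mean of 3 libraries per genotype and time, against the distance in kb from the variant 2 start. The peak at the variant 2 start is present in all groups, whereas signal near 11 kb and 110 kb is carried mainly by KO.

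Further into the gene, H3K27ac was higher in KO already before LPS, when Pol II over the same stretch was no higher than in the inputs. The region chr3:65294265-65302445, 110 kb past the variant 2 start, covers exons of Kcnab1 and of the antisense gene A330015K06Rik. It held 295, 317 and 310 tags in KO and 90.5, 84.0 and 65.5 in WT at 0 h, 421, 318 and 309 against 54.4, 47.1 and 43.8 at 1 h, and 473, 333 and 289 against 50.5, 35.9 and 54.6 at 18 h. The groups did not overlap at any time, and the region was called higher in KO by 1.83 at 0 h (adjusted p = 6.9e-06), 2.61 at 1 h (adjusted p = 2.7e-07) and 2.70 at 18 h (adjusted p = 9.2e-08). It stayed called without KO 1 h replicate 1 (2.47) and without KO 18 h replicate 1 (2.51). The change with LPS did not pass the test of a difference between genotypes (0.78, adjusted p = 0.084 at 1 h; 0.88, adjusted p = 0.093 at 18 h). The KO inputs held 22.6 and 24.8 tags at 0 h and 1 h and the other 4 none.

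The intronic region chr3:65282421-65285716, at 96.0 kb, held 61.3, 68.5 and 62.2 tags in KO and 8.61, 10.2 and 0 in WT at 0 h. In KO it held 31.5, 36.1 and 36.1 at 1 h and 80.8, 29.9 and 26.5 at 18 h, and WT was listed at 0 at both times. It was called higher in KO at 0 h (2.25, adjusted p = 1.5e-04), 1 h (adjusted p = 2.5e-04) and 18 h (adjusted p = 1.2e-04), the last 2 tests being entered through the KO libraries alone (adjusted p = 3.9e-04 and 1.9e-04 with no filter). With a pseudocount of 50 the 1 h and 18 h calls were lost (0.76 and 0.89). It was also called without KO 1 h replicate 1 (adjusted p = 9.1e-05) and without KO 18 h replicate 1, the highest of its group (adjusted p = 5.2e-05). Its change with LPS was -0.10 apart at 1 h (adjusted p = 0.90) and 0.10 apart at 18 h (adjusted p = 0.94). The region chr3:65314732-65321703, at 130 kb, combined both patterns, being higher in KO at 0 h and rising with LPS in both genotypes. It held 142, 148 and 152 tags in KO and 47.9, 55.7 and 50.7 in WT at 0 h (1.36, adjusted p = 2.3e-06, called, but 0.96 and not called with a pseudocount of 50). At 1 h it held 518, 385 and 422 against 293, 299 and 319 (0.52, adjusted p = 0.0071), and at 18 h 536, 521 and 441 against 248, 318 and 249 (0.86, adjusted p = 2.6e-04), differences below 1 that were not called although the groups did not overlap. Its rise at 1 h was 2.35 in WT (adjusted p = 6.2e-10) and 1.51 in KO (adjusted p = 8.2e-08), a difference of -0.84 (adjusted p = 0.010) that was not called. Without the replicates 1 of KO the differences were 0.40 at 1 h and 0.81 at 18 h. The inputs held 12.9 to 61.8 tags here, a range that covers the WT 0 h values.

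**Figure D4:**
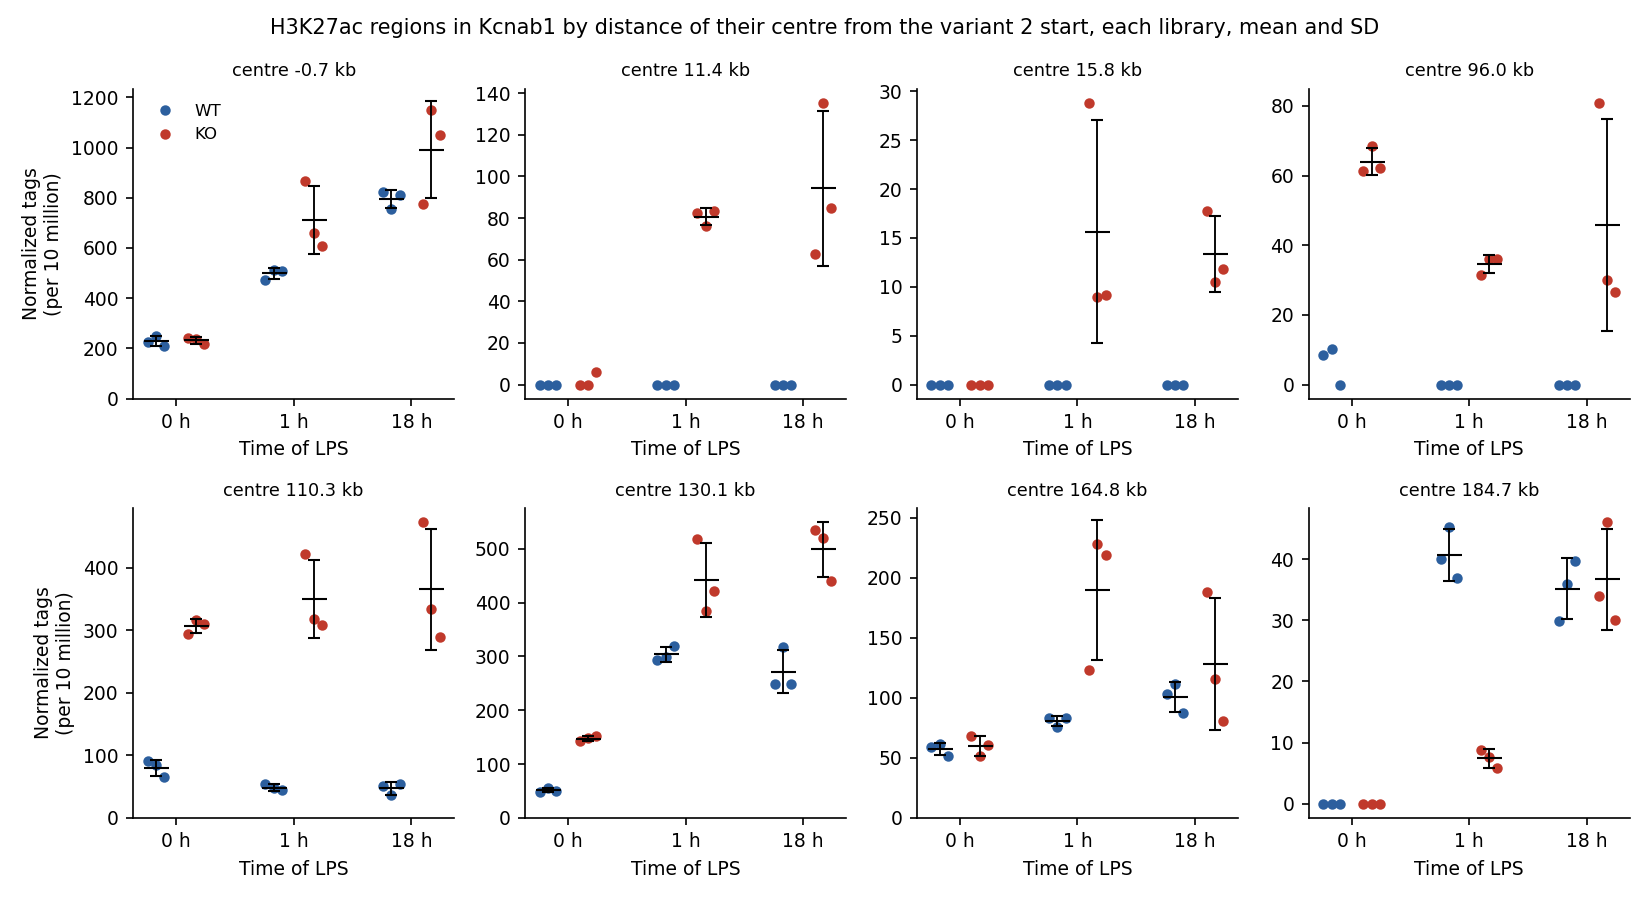
H3K27ac tags per library in the named regions at Kcnab1, by genotype and hours of LPS, with points for single libraries and bars for the mean and SD of 3 libraries where all 3 were above 0. At the variant 2 start both genotypes rise together, in the interval region only KO libraries are above 0, and at chr3:65294265-65302445 KO lies above WT at every time.

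Between genotypes, 1 region was called lower in KO. The intronic region chr3:65371708-65373879, at 185 kb and near the 3' end, was listed at 0 in all libraries at 0 h and held 8.82, 7.64 and 5.78 tags in KO against 40.0, 45.3 and 36.9 in WT at 1 h. It was called lower in KO at 1 h by a log2 difference of -1.54 (adjusted p = 3.2e-05), which, with nothing at 0 h, was also the difference in the change with LPS (adjusted p = 0.0021). At 18 h KO held 34.0, 46.0 and 30.1 tags and WT 29.9, 35.9 and 39.7 (0.04, adjusted p = 0.91; 0.08 without KO 18 h replicate 1), so the groups overlapped again. Without KO 1 h replicate 1 the 1 h difference was -1.60, with a pseudocount of 50 it was -0.66 and not called, and the interaction was not called without replicate 2 of every group (adjusted p = 0.0503). The WT inputs held 5.23 tags at 1 h and 13.9 at 18 h and the other 4 none. The region chr3:65350284-65355541, at 165 kb, held 123, 228 and 218 tags in KO at 1 h and 83.3, 75.6 and 83.3 in WT and was called higher (1.09, adjusted p = 0.0057). It was called without KO 1 h replicate 1 (1.36). With KO 1 h replicates 2 and 3 left out, which leaves 1 library in that group, the difference was 0.55. The region was not called with median centring (0.91), with a pseudocount of 50 (0.84), or without replicate 2 (0.90, adjusted p = 0.23) or replicate 3 (0.99, adjusted p = 0.13) of every group. At 0 h and 18 h it was not called (0.06 and 0.25; -0.05 at 18 h without KO 18 h replicate 1). The broad region chr3:65377910-65393396, which covers Ssr3, held 683, 370 and 396 tags in KO at 1 h against 782, 818 and 885 in WT (-0.82, adjusted p = 0.0024, not called), and without KO 1 h replicate 1 it was called lower (-1.09, adjusted p = 5.7e-08).

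The other regions near Kcnab1 held less. The intronic region chr3:65268560-65270850 held 76.4, 0 and 20.5 tags in KO at 1 h and 32.2, 21 and 28 in WT (-0.31, adjusted p = 0.67), and rose with LPS at 1 h in both genotypes (1.88 in WT, adjusted p = 0.0061; 1.57 in KO, adjusted p = 0.021). It was listed at 0 in all 6 libraries at 0 h and entered these tests through the 1 h libraries alone. Without KO 1 h replicate 1, the only KO library above the WT range, it was called lower in KO (-1.07, adjusted p = 0.041). The region chr3:65273470-65276109 held 99.0, 9.74 and 0 tags in KO at 18 h, with no WT library above 0 (1.48 on the fitted scale, adjusted p = 0.10), so 1 library, KO 18 h replicate 1, carried most of it, and without that library the region was found in too few libraries to be tested. The region chr3:65360033-65361229 held 0, 9.90 and 14.1 tags in KO and 18.6, 13.3 and 15.7 in WT at 18 h (adjusted p = 0.15; -0.61, and -0.24 without KO 18 h replicate 1). Outside the gene, chr3:65395312-65398369 was lower in KO without reaching a call (-0.90, adjusted p = 0.012 at 1 h; -0.99, adjusted p = 0.014 at 18 h; -0.99 and -0.59 without the replicates 1 of KO). It was called lower at 1 h with median centring (-1.09, adjusted p = 0.0093) and without replicate 1 of every group (-1.04, adjusted p = 3.9e-05), and at 18 h with a pseudocount of 1 (-1.15, adjusted p = 0.022). The region chr3:65028275-65030778 held 39.1, 9.55 and 18.0 tags in KO and 36.7, 54.9 and 49.8 in WT at 1 h (-0.92, adjusted p = 0.0498, not called), and without KO 1 h replicate 1 it was called lower (-1.27, adjusted p = 0.0045). At 18 h it held 0, 20.8 and 9.73 tags in KO and none in WT (adjusted p = 0.12). This test was entered through KO alone. It was called higher without KO 18 h replicate 1 (adjusted p = 0.0088) and not called over all libraries with no filter (adjusted p = 0.21). The remaining 7 of the 21 regions never exceeded 14.2 tags. The outermost regions inside the 200 kb limit had medians of 0 tags, and the nearest outside it on the 3' side, chr3:65432638-65439458, was found in all 18 libraries with a median of 163 tags.

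Counted together, 3 of 7 regions tested near Kcnab1 were called at 0 h, all higher in KO, where 1.85% of all regions tested were called and 1.26% called higher. At 1 h it was 6 of 13 (5 higher, 1 lower; 14.1% of all regions called, 9.64% higher) and at 18 h 4 of 14, all higher (3.74% called, 2.62% higher). The change with LPS differed between genotypes in 3 of 13 at 1 h (2 higher, 1 lower; 3.1%) and in 2 of 14 at 18 h, both higher (1.6% called, 0.839% higher). Of the regions called higher, 3 of the 5 at 1 h and 3 of the 4 at 18 h had no WT signal at that time and entered through KO alone, as did both in the interactions, so these counts support nothing and are a description. With LPS, 6 of 10 regions rose at 1 h in WT (40.8% of all regions called, 14.9% higher) and 7 of 13 in KO (27.3% called, 10.6% higher), and none was called lower. At 18 h 4 of 9 rose in WT (38.9% called, 13.5% higher) and 6 of 14 in KO (40.1% called, 13.7% higher), and 1 in KO, chr3:65395312-65398369, was called lower (-1.02). Of the regions that rose, 3 of 6 and 4 of 7 at 1 h and 2 of 4 and 4 of 6 at 18 h (WT and KO) were found in at most 1 library of their 0 h group. They entered through the LPS libraries alone, so these counts too are a description.

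Among the neighbours, Pol II at Ssr3, a subunit of the translocon-associated protein complex of the endoplasmic reticulum, did not pass the main test between genotypes. It held 369, 347 and 380 tags in KO and 349, 442 and 399 in WT at 0 h, 602, 576 and 593 against 683, 709 and 687 at 1 h, and 560, 436 and 465 against 529, 504 and 546 at 18 h. All 3 KO libraries were below all WT libraries at 1 h (-0.23, adjusted p = 0.051), and the groups overlapped at 0 h (-0.11, adjusted p = 0.57) and 18 h (-0.12, adjusted p = 0.39). Ssr3 was called lower in KO at 1 h with median centring (-0.48, adjusted p = 2.1e-04), with a pseudocount of 1 (adjusted p = 0.048) or 50 (adjusted p = 0.049), and without replicate 1 of every group (adjusted p = 0.041). With median centring its 1 h interaction was also called (-0.34, adjusted p = 0.046). The next gene, Tiparp, a poly(ADP-ribose) polymerase induced by the aryl hydrocarbon receptor, differed at both times after LPS, in opposite directions. Tiparp held 861, 819 and 854 tags in KO and 768, 898 and 854 in WT at 0 h (0.01, adjusted p = 0.95). At 1 h it held 3318, 3202 and 3382 against 4545, 4224 and 4330 (-0.40, adjusted p = 3.6e-05), and at 18 h 2665, 2626 and 2540 against 2179, 2133 and 2239 (0.26, adjusted p = 0.0036, but 0.24 and adjusted p = 0.071 without replicate 2 of every group). Its change with LPS differed between genotypes by -0.41 at 1 h (adjusted p = 0.0021) and by 0.25 at 18 h (adjusted p = 0.049). The call of the 18 h interaction was lost with a replicate block (adjusted p = 0.073), with the strict filter (adjusted p = 0.051), with the 500 bp window at the start (adjusted p = 0.21) and without replicate 2 (adjusted p = 0.39) or 3 (adjusted p = 0.18) of every group.

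Lekr1 held 41.5, 44.0 and 29.4 tags in KO and 49.2, 57.1 and 60.9 in WT at 1 h (-0.45, adjusted p = 0.011), and was not called at 0 h (-0.09) or 18 h (-0.08). With only the 500 bp window at its start counted, the 1 h difference turned to 0.14 (adjusted p = 0.41). Without replicate 3 of every group it was -0.26 and not called (adjusted p = 0.19). Ccnl1, a cyclin that takes part in pre-mRNA splicing, was not called at any time (0.01, 0.07 and 0.09). With libraries centred on the median gene it was lower in KO at 1 h (-0.18, adjusted p = 0.033) and higher at 18 h (0.23, adjusted p = 0.013). Ptx3, a secreted pattern recognition protein, lies within Veph1 and shares its tags. Veph1 held 36.4, 24.5 and 6.68 tags in KO and 5.86, 25.1 and 0 in WT at 1 h (adjusted p = 0.087), and both genes were listed at 0 at the other times. The vomeronasal receptor genes Vmn2r1 to Vmn2r7 were listed at 0 in every library. Of the neighbours tested, limma called 0 of 4 at 0 h, also 0 at an unadjusted p under 0.05 (6.96% of all genes were called), 2 of 6 at 1 h, both lower in KO (45.7% called, 7.49% lower), and 1 of 4 at 18 h, higher (21.1% called, 7.58% higher). The interaction called 1 of 6 at 1 h (18.4%) and 1 of 4 at 18 h (14.8%), which was Tiparp both times. With LPS every neighbour tested was called, 6 of 6 at 1 h in WT (86.9% of all genes called, 18.6% higher) and KO (82.9% called, 20.6% higher), with Lekr1 lower and the other 5 higher. Of those 5, Veph1 and Ptx3 share tags and entered through the 1 h libraries alone. At 18 h it was 4 of 4, all higher, in WT (66.5% called, 33.2% higher) and KO (70.2% called, 28% higher). The rise of Tiparp after 1 h of LPS came to 2.37 for WT and to 1.95 for KO.

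**Figure D5:**
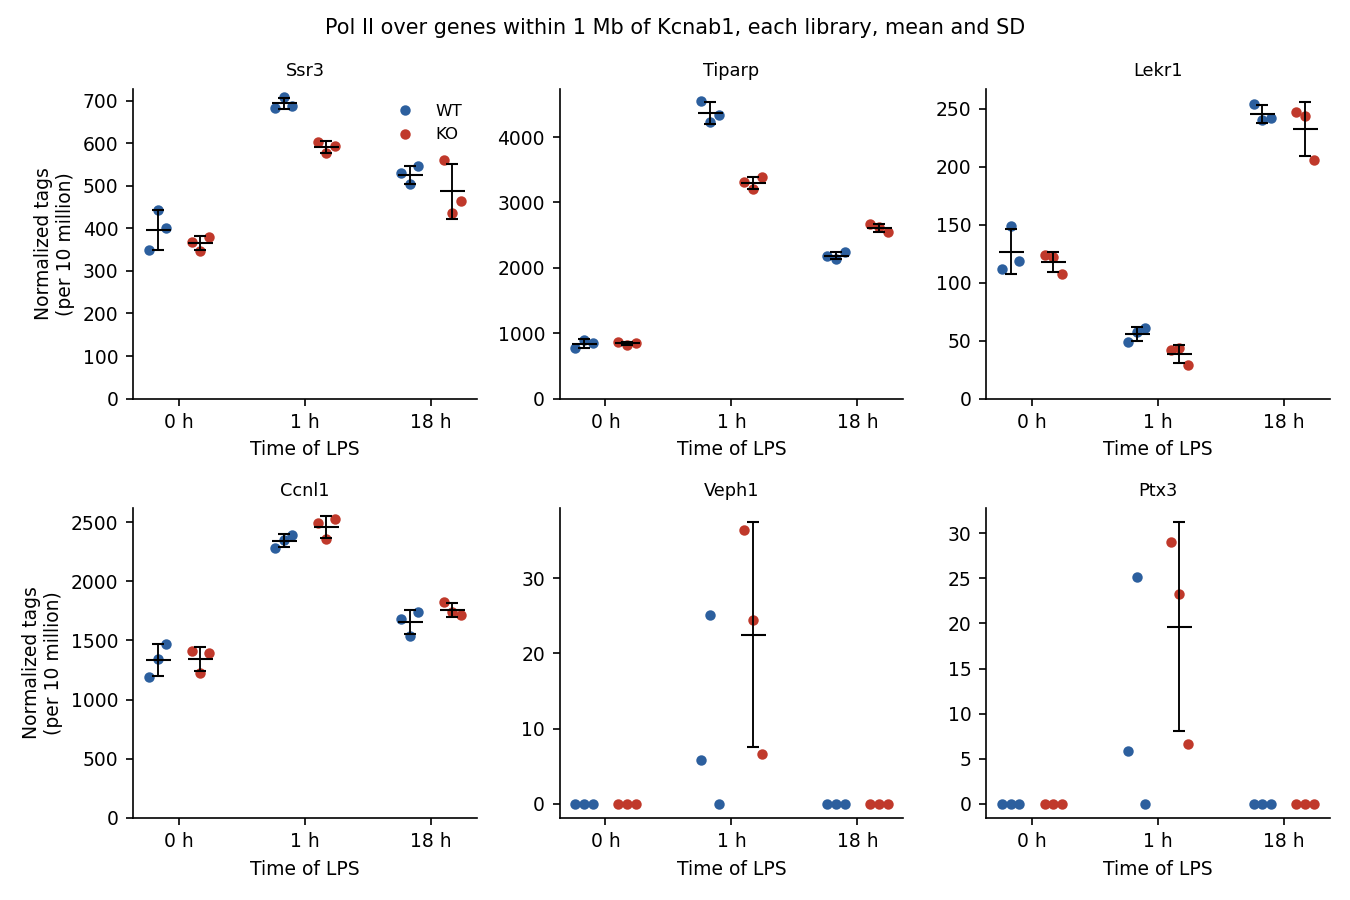
Pol II tags per library at the neighbouring genes Ssr3, Tiparp, Lekr1, Ccnl1, Veph1 and Ptx3, by genotype and hours of LPS, with points for single libraries and bars for the mean and SD of 3 libraries where all 3 were above 0. At 1 h the KO libraries lie below the WT libraries at Ssr3, Tiparp and Lekr1, and at Ccnl1 the groups overlap at every time.

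Pol II was also examined at a list of 21 other potassium channel genes, in which Kcnab1 was not counted. The other Kv beta subunits stand first in it, followed by the Kv1 alpha subunits. At the other beta subunit genes, Kcnab2 and Kcnab3, Pol II was lower at 1 h than at 0 h in every library. Kcnab2 held 205, 220 and 215 tags in KO and 230, 228 and 202 in WT at 0 h, 35.3, 40.1 and 33.0 against 47.2, 43.3 and 38.6 at 1 h, and 214, 276 and 252 against 315, 339 and 323 at 18 h. Kcnab2 was lower in KO at 18 h (-0.39, adjusted p = 0.014, but -0.25 and not called with median-centred libraries). Kcnab3 was not called (0.05, 0.24 and -0.23), and held 80.0, 85.1 and 79.7 tags at 0 h, 19.9, 16.6 and 21 after 1 h of LPS, and 91.2, 97.8 and 87.1 after 18 h in KO. Of the 8 genes for pore-forming Kv1 alpha subunits, 6 were listed at 0 in every library. Kcna3 held 87.8, 130 and 94.9 tags in KO and 119, 125 and 123 in WT at 1 h (-0.23, adjusted p = 0.39), and Kcna7, found only at 1 h, held 42.2, 18.4 and 37.8 against 14.7, 3.57 and 14.0 (1.05, adjusted p = 0.0010).

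Among the other channels, Kcnj2, the inward rectifier Kir2.1, was higher in KO at 0 h (1769, 1818 and 1762 tags against 1154, 1322 and 1279; 0.51, adjusted p = 0.0010) and at 1 h (930, 841 and 831 against 448, 468 and 475; 0.89, adjusted p = 6.3e-07), and lower at 18 h (96.5, 101 and 103 against 283, 257 and 215; -1.24, adjusted p = 1.6e-08). The tandem pore channel gene Kcnk13 held 215, 225 and 249 tags in KO and 613, 627 and 573 in WT at 18 h (-1.36, adjusted p = 1.0e-09), and Kcnk6 63.5, 47.9 and 42.9 against 144, 144 and 152 (-1.36, adjusted p = 1.7e-06). Kcne3, an accessory channel subunit, was found only at 0 h, with 53.2, 48.7 and 53.0 tags in KO and 18.2, 18.6 and 16.3 in WT (1.15, adjusted p = 6.9e-07). In all, 2 of 11 list genes tested were called at 0 h, both higher in KO (6.96% of all genes called, 4.23% higher), 4 of 11 at 1 h (45.7% of all genes called; Kcna7, Kcnj2 and Kcnq1 higher, Kcnk6 lower) and 4 of 9 at 18 h, all lower (21.1% of all genes called, 13.5% lower). Kcnq1 at 1 h (0.54, adjusted p = 0.037) was not called with median-centred libraries (0.29). The list medians were -0.04, 0.11 and -0.25, beside 0.04, 0.24 and -0.10 over all genes. No contrast with Kcnab1 is drawn from these counts, since its Pol II difference between genotypes is what it was selected on.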

How the data were processed

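Pol II and H3K27ac ChIP-seq of BMDMs gave 36 libraries, with 6 inputs. Per the labels and the file headers, the authors aligned reads to mm10 with HISAT2 2.1.0 and called regions in each library on its own with HOMER in histone style, with windows of 500 bp, stitching of gaps up to 1000 bp and a Poisson threshold of 0.001. The deposited values are a signal: tags per region scaled to a library size of 10 M tags (M for mega). Regions below the caller's limit are missing and were listed at 0, so low places depend on depth, and intervals for counting error were not computed.

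H3K27ac regions were merged across the 18 libraries, and each library's tags were summed over the merged region. For Pol II, tags were summed over each gene with 500 bp flanks, in proportion to overlap. A feature entered a test when at least 2 of the 3 libraries in a compared group had it, and tests were run with limma 3.58.1 (R 4.3.3; trended variance, 6 group means) on log2(tags + 10), so folds of low features are understated, and p-values were adjusted by Benjamini-Hochberg over all features tested. Regions were called at an adjusted p under 0.05 with a log2 change over 1, genes at an adjusted p under 0.05. Two-sided tests were used. The fit was tested on simulated data. The named features were those overlapping Kcnab1 (up to 12 regions by highest group mean) or called nearby, neighbours that passed the filter, channel genes called or highest, and the 5 genes most correlated with Kcnab1. The members and lists were chosen with earlier results of these data known. Sequences came from RefSeq promoters (GRCm38.p6; all 3 Kcnab1 starts matched) and the mm10 genome. Alternatives were other pseudocounts, filters, windows, scaling, a replicate block and leaving out libraries. The text prints group means ± SD over 3 libraries.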

Additional observations from a re-analysis of the deposited data

Results flagged for a closer look

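The change with LPS differed between KO and WT, by limma's interaction term, in the fit of 3 H3K27ac regions and 1 neighbouring gene. In the interval region chr3:65197482-65201455 the adjusted p was 1.304e-04 at 1 h and 5.593e-05 at 18 h, with all KO libraries above 0 after LPS and no WT library above 0. In chr3:65203308-65204579 it was 0.02671 at 1 h and 0.04176 at 18 h, on KO values of 8.91 to 28.8 tags. Both regions are listed at 0 in all WT libraries and were tested only because KO had them. For the smaller region the 18 h call was lost with no filter (adjusted p = 0.061), median centring (adjusted p = 0.064), the common density floor (adjusted p = 0.21) and without KO 18 h replicate 1 (adjusted p = 0.052), so nothing is read from it. In chr3:65371708-65373879 it was 0.002093 at 1 h, with all 3 KO libraries below all 3 WT libraries, and was not called with a pseudocount of 50 (-0.66) or without replicate 2 (adjusted p = 0.0503). Pol II at Tiparp gave 0.002122 at 1 h, with a smaller rise in KO, and 0.04921 at 18 h, with a larger rise in KO, which a replicate block (adjusted p = 0.073), the strict filter and the window at the start did not keep. No group here has 4 or more libraries, so single libraries were not tested as outliers.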

How the results depend on the processing

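Limits at Kcnab1 include the threshold of the region caller, the deeper H3K27ac libraries of KO, the input regions under most H3K27ac regions, and the tags of Ssr3 in the last 5 kb. Alternatives added after seeing the data were the gene without its last 5 kb and a common density floor. For single H3K27ac regions, 730 alternative values kept their call, 32 lost it, 23 gained it and 0 reversed. For single neighbouring genes, 217 kept it, 7 lost it, 8 gained it and 2 reversed: Ccnl1 at 1 h with median centring (-0.18) and Lekr1 at 1 h with the 500 bp window at its start (0.14). The cause was not tested.

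The log2 difference of Pol II at Kcnab1 (0.15, 1.16 and 1.94 at 0, 1 and 18 h; interactions 1.01 and 1.80) was 0 at 1 h, 18 h and in both interactions when only 500 bp at the annotated start were counted, where no region was found. Without the last 5 kb it was 0.98, 2.14 and 2.41, with an 18 h interaction of 1.44. With median centring it was 0.92 at 1 h and 2.08 at 18 h, with interactions of 0.80 and 1.96, and the interval values became 301.9 tags at 1 h (difference and interaction) and 561.0 (18 h interaction). With a pseudocount of 50 it was 1.88 at 18 h. Leaving out 1 replicate number in every group gave 0.04 to 0.30, 1.04 to 1.30 and 1.92 to 1.98, interactions of 0.83 to 1.26 and 1.62 to 1.94, and interval differences of 205.4 to 219.2 tags at 1 h and 539.7 to 557.6 at 18 h.

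Called H3K27ac regions near Kcnab1 (3, 6 and 4; interactions 3 and 2) became 0, 1 and 1, with interactions of 1 and 1, when regions overlapping an input region were left out, since 16 of the 21 do. A pseudocount of 50 gave 2 at 1 h, 2 at 18 h and interactions of 1 and 1. The strict filter (found in every library compared) gave 3 at 1 h, 1 at 18 h and interactions of 0 and 0, and there the regions with no WT signal were not tested. Leaving out KO 1 h replicates 2 and 3 leaves 1 library in that group, so no count is read from that fit. Median centring, the common density floor and no filter each gave 1 for the 18 h interaction. Leaving out 1 replicate number in every group gave 3, 5 to 8 and 3 to 5, with interactions of 1 to 5 (5 also without KO 1 h replicate 1 alone) and 1 to 3 (1 also without KO 18 h replicate 1 alone).

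Called neighbours (0, 2 and 1; interactions 1 and 1) became 4 at 1 h, 2 at 18 h and 3 for the 1 h interaction with median centring, 1 at 1 h and 0 for the 18 h interaction with the 500 bp window at the start, and 0 for the 18 h interaction with the strict filter. Leaving out 1 replicate number in every group gave 1 to 3 and 0 to 1, with interactions of 1 and of 0 to 1. Called channel genes (2, 4 and 4) ranged over 2, 2 to 4 and 3 to 5. Median centring moved the split of all genes called for Pol II from 4618 higher and 905 lower to 1910 and 2563 at 1 h, and from 971 and 1730 to 1960 and 999 at 18 h.

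Libraries with the same replicate number did not deviate together (r of -0.106 to 0.0279 for H3K27ac and -0.0631 to 0.109 for Pol II). A replicate block changed 1 of the counts, the neighbours' 18 h interaction, from 1 to 0 (Tiparp, adjusted p = 0.073).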
